A study of Mus musculus with 7 samples.

Results

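Immunity-related GTPases (IRGs) and guanylate-binding proteins (GBPs) were examined as 10 genes chosen by name: Iigp1, Igtp, Irgm1, Irgm2, Tgtp1, Tgtp2, Ifi47, Gbp2, Gbp3 and Gbp7. They are 10 of the 47729 genes in the count tables, and the rule that chose them uses gene names and no measured value. They were, however, chosen with earlier results of these data known. RNA-sequencing had been done on CD4+CD25+ splenocytes of wild-type (WT) mice, with 3 libraries from aged (18 months) and 4 from young (8 weeks) animals. The comparison asks how the transcripts of these cells differ with age. The study used male C57BL/6 mice, no library of either age carried a treatment in the labels, and the cells had been isolated with magnetic beads rather than sorted. The sample labels give the young age as 8 weeks, whereas the methods of the study give a somewhat greater age. The labels call the libraries biological replicates and say no more about separate animals or pools, so p-values measure the spread between these libraries.

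IRGs and GBPs are GTPases that cells make in response to interferon-gamma, which signals through its receptor and the kinases Jak1 and Jak2 to promoter elements called GAS, and through Irf1 to elements called ISRE. The effector IRGs and the GBPs gather on the vacuoles of intracellular parasites and bacteria and help to break them open, while the regulatory IRGs (Irgm1, Irgm2 and Igtp) sit on host membranes and keep the effectors in their inactive form. They have been studied most in macrophages and fibroblasts, and Irgm1 is also known for the survival of dividing CD4+ T cells under interferon-gamma.

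The libraries held 10734234 to 13649310 counts on genes, and the 4 young libraries were all deeper than the 3 aged ones. Foxp3, the transcription factor that defines regulatory T cells (Tregs), lay at 447 to 621.8 CPM (counts of a gene per 1000000 counts of the library) in the aged and 393.8 to 518.3 in the young libraries, and no marker on the Treg or T cell list was at 0. Summed over its list, the Treg markers lay at 3032 to 3536 CPM in aged and 2401 to 3873 in young libraries. Of the 10 Treg markers, none was called higher and 2 were called lower in aged libraries, the receptor gene Gpr83 (log2 fold change -1.71, edgeR adjusted p = 0.00275) and Lrrc32, which encodes GARP (-1.02, edgeR adjusted p = 0.0083). Other cells were present: B cell markers summed to 957.7 to 1880 CPM in aged and 1453 to 2221 in young libraries, and red cell genes to 13220 to 161000 and 12620 to 119900. Mitochondrial genes took 5.08% to 10.69% of gene counts in aged and 2.63% to 3.23% in young libraries. In such bulk samples, fewer cells of a type and less RNA per cell cannot be told apart.

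The 10 genes sit in 4 clusters (GRCm38, GENCODE M21), all as protein-coding genes. Irgm1 (chr11:48861968-48871683), Tgtp1 (chr11:48985327-48994172), Tgtp2 (chr11:49057194-49064206) and Ifi47 (chr11:49076587-49096974) are neighbours. Igtp (chr11:58199556-58207591) and Irgm2 (chr11:58199618-58222782) overlap further along the same chromosome. Gbp7 (chr3:142530342-142550149), Gbp3 (chr3:142560026-142573209) and Gbp2 (chr3:142620602-142638008) lie in a row. Iigp1 stands apart from the other members.

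RefSeq promoter windows (GRCm38.p6, 250 bases before to 50 after the start site) were found for 9 of the 10 genes, all but Iigp1. The ISRE core was searched on both strands as GAAA, any 2 bases and GAAA again. It was found in the windows of 8 of these 9 genes, and in those of 3.99% of all 27025 genes (3.44% of all 32851 windows). The stretches that hold it are shown because they are the element that the genes share, with the core in capitals, each on the strand of its gene. A core on the opposite strand reads here as TTTC, any 2 bases and TTTC.
Igtp, chr11:58199512-58199541, plus strand: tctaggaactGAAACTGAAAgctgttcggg
Irgm2, chr11:58214903-58214932, plus strand: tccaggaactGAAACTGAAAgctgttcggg
Tgtp1, chr11:48992304-48992333, minus strand: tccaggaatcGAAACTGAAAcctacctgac
Tgtp2, chr11:49064263-49064292, minus strand: tccaggaatcGAAACCGAAAcctactctga
Irgm1, chr11:48871425-48871454, minus strand: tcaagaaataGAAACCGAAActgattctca
Gbp2, chr3:142620594-142620623, plus strand: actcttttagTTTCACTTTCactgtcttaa
Gbp3, chr3:142559989-142560018, plus strand: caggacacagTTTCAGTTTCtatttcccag
Gbp7, chr3:142530273-142530302, plus strand: gtgtgtgcagTTTCAGTTTCagttctccat

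The core began 24 to 77 bases before the RefSeq start site, on the strand of the gene in the 5 IRG genes and on the opposite strand in the 3 GBP genes. Irgm1 and Gbp3 each held a second, overlapping match, and a second RefSeq window of Gbp3, for another start site, held neither motif. The GAS motif, searched as TTCNNNGAA, which reads the same on both strands, was found in 5 of the 9 genes and in 9.55% of all genes (8.3% of all windows). In Igtp, Irgm2, Tgtp1 and Tgtp2 it began 11 bases before the ISRE core, as these stretches show with the GAS letters in capitals.
Igtp, chr11:58199501-58199529, plus strand: aactagccatTTCTAGGAActgaaactga
Irgm2, chr11:58214892-58214920, plus strand: aactagccatTTCCAGGAActgaaactga
Tgtp1, chr11:48992316-48992344, minus strand: aactagccatTTCCAGGAAtcgaaactga
Tgtp2, chr11:49064275-49064303, minus strand: agctagccatTTCCAGGAAtcgaaaccga

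Gbp7 held 2 GAS matches, at 106 and 87 bases before its start site. Neither set of letters was in the window of Ifi47. At the best offset without gaps, the windows of Igtp and Irgm2 were 68.2% identical over 270 bases. Those of Tgtp1 and Tgtp2 were 51.7% identical over 292. The other pairs compared ran from 30.1% (Ifi47 and Igtp) to 34.9% (Gbp2 and Gbp3). An inserted or lost base lowers such a value, so it can understate likeness. The start sites are those of RefSeq. The M21 models of Irgm1, Irgm2, Tgtp1 and Gbp2 begin further upstream, so that in M21 the stretches of these 4 genes lie within the gene, that of Gbp2 in part.

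All 10 genes passed the filter on low counts and were tested among 13904 genes with edgeR (quasi-likelihood test, p-values adjusted by the Benjamini-Hochberg method over all genes tested, called below an adjusted p of 0.05). With age, 6 of the 10 rose (Iigp1, Igtp, Irgm1, Irgm2, Gbp2 and Gbp3), none fell and 4 did not pass the test (Tgtp1, Tgtp2, Ifi47 and Gbp7). Among all genes tested, 16.7% were called, 9.8% higher and 6.94% lower in aged cells. Every aged library lay above every young one in the same 6 genes, against 15.5% of all genes tested. The 10 genes were chosen with earlier results of these data known, so the shares stand beside the counts as description only. The median log2 fold change of the 10 genes was 0.53, and that of all genes tested was 0.02. Summed over the 10 genes, the level was 1235 to 1528 CPM in the aged and 808.9 to 991.9 in the young libraries.

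**Figure D1:**
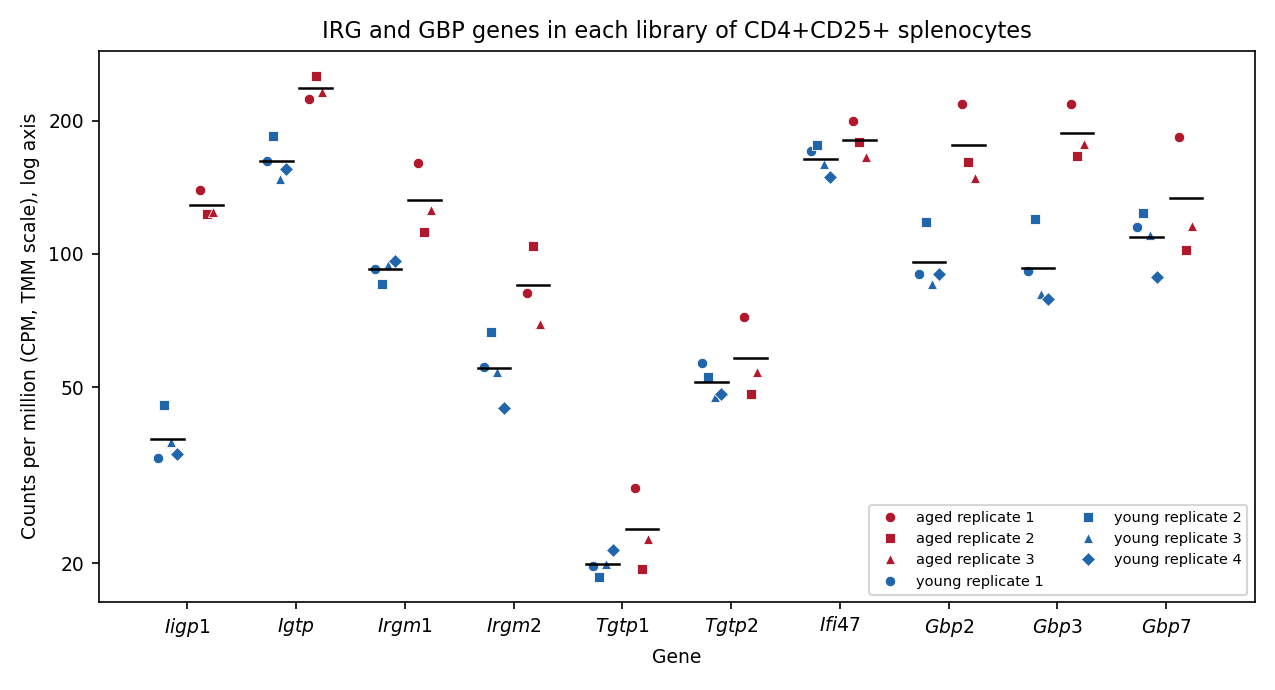
Level of each of the 10 genes in each library, in CPM on the TMM scale (log axis). Red points are the 3 aged libraries, blue points the 4 young libraries, symbols mark the replicate number and black lines the group means. The red points of Iigp1 lie farthest above the blue ones, while those of Tgtp1, Tgtp2, Ifi47 and Gbp7 overlap them.

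Among the regulatory IRGs, Irgm1, which directs effector IRGs away from host membranes, was at 160.6, 112.2 and 125.4 CPM in the aged libraries (replicates 1, 2 and 3, the order used throughout) and at 92.55, 85.7, 94.53 and 96.4 CPM in the young libraries (replicates 1, 2, 3 and 4). The aged libraries were all higher, replicate 1 by the widest margin, and the young libraries lay close together. The means were 132.7 ± 25.0 CPM (SD, n = 3) and 92.3 ± 4.67 CPM (SD, n = 4), and the log2 fold change was 0.52 (SE 0.13, edgeR adjusted p = 0.0271). The call was close to the threshold, and 5 of the 7 fits that each left out 1 library lost it (without aged replicate 3 or without any 1 young library, adjusted p 0.0551 to 0.069).

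Irgm2, a second regulatory IRG, was at 81.78, 104.3 and 69.34 CPM in the aged and at 55.41, 66.5, 54.18 and 44.94 CPM in the young libraries. The groups did not overlap, but aged replicate 3 lay just above young replicate 2. The means were 85.15 ± 17.7 CPM (SD, n = 3) and 55.26 ± 8.83 CPM (SD, n = 4), and the log2 fold change was 0.62 (SE 0.17, edgeR adjusted p = 0.0377). Its call was lost in 5 of the 7 fits that left out 1 library, those without aged replicate 1 or 2 or without young replicate 1, 3 or 4 (adjusted p 0.051 to 0.096).

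Igtp (also known as Irgm3), the third regulatory IRG, was at 224.5, 252.7 and 232.5 CPM in the aged and at 161.8, 184.4, 147.4 and 155.3 CPM in the young libraries. Here the aged libraries lay close together and well above all young ones. The means were 236.6 ± 14.5 CPM (SD, n = 3) and 162.2 ± 15.9 CPM (SD, n = 4), and the log2 fold change was 0.54 (SE 0.11, edgeR adjusted p = 0.0125). The call held without any 1 library. In M21, 8.01% of the exonic bases of Igtp overlap Irgm2, and 11.8% of its 50-base stretches also occur there, so that part of the reads of either gene could be set aside or counted for the other.

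Among the effector IRGs, Iigp1 (also known as Irga6, chr18:60376027-60392634), which coats parasite vacuoles, had the largest change of the 10 genes. It was at 139.3, 123.1 and 124.5 CPM in the aged and at 34.61, 45.62, 37.59 and 35.26 CPM in the young libraries. The groups were far apart, with the lowest aged library above all young ones by more than the range within either age. The means were 128.9 ± 8.98 CPM (SD, n = 3) and 38.27 ± 5.06 CPM (SD, n = 4), and the log2 fold change was 1.75 (SE 0.12, edgeR adjusted p = 0.000235), or 3.37-fold. Iigp1 was called under each of the 17 alternatives tried, with log2 fold changes of 1.65 to 1.85, and only 1.69% of its 50-base stretches occur in another gene.

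Tgtp1 and Tgtp2, which both encode the T cell-specific GTPase Irgb6, did not pass the test. Tgtp1 was at 29.62, 19.44 and 22.74 CPM in the aged and at 19.75, 18.64, 19.9 and 21.43 CPM in the young libraries (log2 fold change 0.26, SE 0.15, edgeR adjusted p = 0.268). Tgtp2 was at 72.17, 48.24 and 54.09 CPM in the aged and at 56.63, 52.76, 47.62 and 48.31 CPM in the young libraries (log2 fold change 0.18, SE 0.14, edgeR adjusted p = 0.421). In both genes aged replicate 1 was the highest library and aged replicate 2 lay within the young range. Without aged replicate 1 the log2 fold change of Tgtp1 was 0.08. The copies share most of their sequence, with 81.2% of the 50-base stretches of Tgtp1 and 86.6% of those of Tgtp2 found in another gene, so their separate counts are uncertain. Summed to 1 feature, they were at 67.67 to 101.8 CPM in the aged and 67.52 to 76.38 CPM in the young libraries (log2 fold change 0.20, SE 0.14, edgeR adjusted p = 0.344).

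Ifi47, the effector also known as Irgd, was at 199.9, 178.7 and 165.5 CPM in the aged and at 170.5, 176.4, 159.7 and 149.2 CPM in the young libraries. The means differed by less than the range of the young libraries, and aged replicate 3 lay below 2 of the young libraries. Its log2 fold change was 0.15 (SE 0.11, edgeR adjusted p = 0.378), and 0.07 without aged replicate 1. In M21, 8.78% of its exonic bases overlap Gm12188 or Olfr56, and the strand setting of the counting is not given in the sources used here.

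Among the GBPs, Gbp2, a large GTPase that binds to pathogen vacuoles, was at 218.3, 161 and 148.3 CPM in the aged and at 90.02, 118.3, 85.61 and 89.88 CPM in the young libraries. Young replicate 2 stood above the other young libraries and aged replicate 1 above the other aged ones, and the ages did not overlap. The means were 175.9 ± 37.3 CPM (SD, n = 3) and 95.96 ± 15.1 CPM (SD, n = 4), and the log2 fold change was 0.87 (SE 0.17, edgeR adjusted p = 0.0107).

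Gbp3 was at 218.3, 166.4 and 177.1 CPM in the aged and at 91.59, 120, 81.34 and 79.27 CPM in the young libraries. The same 2 libraries were highest as for Gbp2, and again the ages did not overlap. The means were 187.3 ± 27.4 CPM (SD, n = 3) and 93.06 ± 18.8 CPM (SD, n = 4), and the log2 fold change was 1.01 (SE 0.17, edgeR adjusted p = 0.00616), or 2.01-fold. The calls of Gbp2 and Gbp3 held without any 1 library.

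Gbp7, which lies next to Gbp3, did not pass the test. It was at 184, 102.3 and 115.9 CPM in the aged and at 114.8, 123.6, 110.6 and 88.88 CPM in the young libraries. Only aged replicate 1 stood above the young libraries, and the other aged libraries lay inside their range. Its log2 fold change was 0.29 (SE 0.21, edgeR adjusted p = 0.363). Leaving out aged replicate 1 brought the log2 fold change to -0.01. Of its exonic bases, 11.4% overlap Gm43802. The difference between the changes of Gbp7 and Gbp3 was not tested.

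Per kilobase of exon, which allows levels of different genes to be compared, Igtp had the highest level at both ages, at 117 ± 7.19 CPM per kb (SD, n = 3) in aged and 80.2 ± 7.87 (SD, n = 4) in young cells. In young cells Ifi47 (66.3 CPM per kb), Gbp2 (38.1), Gbp3 (28.5), Gbp7 (19.5), Tgtp2 (17.5), Irgm1 (15.9), Irgm2 (14.97), Iigp1 (6.57) and Tgtp1 (6.22) followed. Of the 9 neighbouring pairs in that order, those of Gbp2 and Gbp3, Gbp7 and Tgtp2, Tgtp2 and Irgm1, Irgm1 and Irgm2, and Iigp1 and Tgtp1 overlapped between libraries. In aged cells the order after Igtp was Ifi47 (73.3 CPM per kb), Gbp2 (69.9), Gbp3 (57.4), Gbp7 (23.9), Irgm2 (23.1), Irgm1 (22.8), Iigp1 (22.1), Tgtp2 (19.8) and Tgtp1 (7.47). Iigp1 was thus at the level of Tgtp1 in young cells and among the group from Gbp7 to Tgtp2 in aged cells. In aged cells the ranges of Igtp and Ifi47, of Gbp3 and Gbp7, and of Tgtp2 and Tgtp1 were separate, and those of the other 6 neighbouring pairs overlapped. The length is that of all M21 exons of a gene, and Tgtp1 and Tgtp2 may have lost reads that align to both.

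Within an age most of the 10 genes had the same highest library. Aged replicate 1 was the highest aged library for 8 of the 10 genes, all but Igtp and Irgm2, which were highest in aged replicate 2. Young replicate 2 was the highest young library for 7 of them, all but Irgm1, Tgtp1 and Tgtp2. Aged replicate 1 was also the highest aged library for 8 of 10 other IRG genes and 14 of 15 other GBP and large GTPase genes. Young replicate 2 was the highest young library for 5 and 4 of those relatives. The share over all genes tested is not given here. Among the 10 genes the lowest library was shared less, with aged replicate 2 lowest for 6 and young replicate 4 for 4. Young replicate 2 was itself the lowest young library for Irgm1 and Tgtp1. The spread was widest for Gbp7, at 0.50 above the aged mean in aged replicate 1 and 0.34 below it in aged replicate 2 on the log2 scale. Igtp and Iigp1 varied least among aged libraries, Igtp from -0.07 to 0.10 and Iigp1 from -0.07 to 0.11. Without aged replicate 1, 5 of the 6 genes were still called and Irgm2 was not (adjusted p = 0.051).

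**Figure D2:**
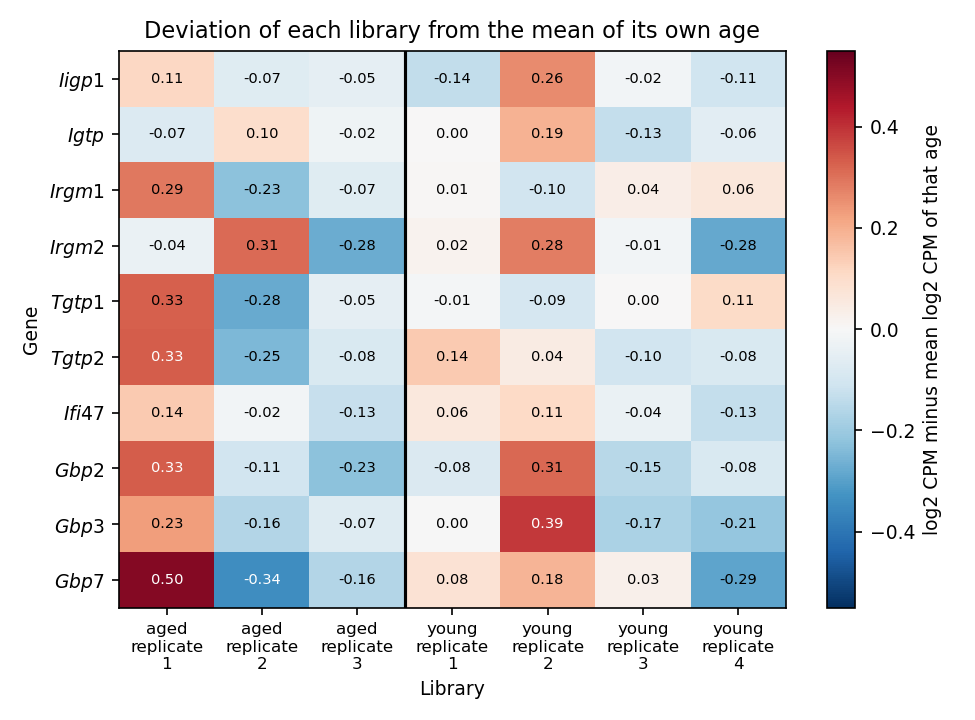
Deviation of each library from the mean of its own age for each of the 10 genes (rows), on the log2 CPM scale, with the value printed in each cell and a black line between the aged and young libraries. Red cells gather in aged replicate 1 and young replicate 2, with Igtp and Irgm2 highest instead in aged replicate 2.

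Markers of other cells moved with some of these libraries. The 10 neutrophil markers summed to 5322 CPM in aged replicate 1, 1909 in aged replicate 2, 682.6 in aged replicate 3 and 308.5 to 993.9 in the young libraries, with 4 of 10 called higher and none at 0. The 12 monocyte or macrophage markers summed to 422.2 to 575.8 CPM in the aged and 537.6 to 632.5 CPM in the young libraries, with 1 called higher, 4 lower and none at 0. The 8 dendritic cell markers summed to 45.4 to 66.7 CPM in the aged and 63.1 to 82.7 CPM in the young libraries, with 1 higher and 3 lower, and Cd209a was at 0 in aged replicate 1. Red cell genes, of which none of 7 was called and none was at 0, were lowest in the libraries where most of the 10 genes were highest, at 13220 CPM in aged replicate 1 against 161000 and 81460 in the other aged libraries, and at 12620 CPM in young replicate 2 against 62940 to 119900 in the other young libraries. In these same libraries the Treg markers summed highest within their age (3536 and 3873 CPM) and the B cell markers lowest (957.7 and 1453 CPM). The 7 T cell markers, with 1 called higher and 1 lower, summed to 2562 CPM in aged replicate 1. That was below the other aged libraries (2831 and 2818 CPM). In young replicate 2 the T cell markers summed to 3233 CPM, above the other young libraries. The 6 plasma cell markers summed to 2002 CPM in young replicate 2, 325.5 to 497.5 in the other young libraries and 749.3 to 1304 in the aged libraries, with 1 called higher, none lower and none at 0. The 5 platelet markers were low and summed to 20.18, 30.01 and 39.49 CPM in the aged and 8.20 to 17.27 CPM in the young libraries, so that the ages did not overlap, with 1 of the 4 tested called higher and none at 0. Of the 6 natural killer cell markers 1 was called lower and none higher (median log2 fold change -0.68). They summed to 28.6 to 38.7 CPM in the aged and 35.59 to 60.02 CPM in the young libraries. The 2 CD8 T cell markers summed to 81.95, 45.42 and 54.56 CPM in the aged and 48.77 to 92.75 CPM in the young libraries. Neither was called. Of the 8 B cell markers 1 was called lower and none higher. The part of these cells in the result was not tested.

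The relatives of the 10 genes were then described by cluster, a grouping by position made after the values had been seen. In the cluster of chromosome 18, Iigp1 rose together with Gm4951 and Gm4841, further IRG genes. The remaining gene of that cluster, F830016B08Rik, was called higher too, but it passed the filter on low counts only through the aged libraries, where it is high. Gm4951 was at 19.22, 10.67 and 11.7 CPM in the aged and at 1.05, 2.24, 1.03 and 1.58 CPM in the young libraries, a log2 fold change of 3.21 (SE 0.33, edgeR adjusted p = 0.00112). Gm4841 was at 17.04, 20.54 and 20.4 CPM against 1.4, 3.08, 1.19 and 2.72 CPM, a log2 fold change of 3.18 (SE 0.31, edgeR adjusted p = 0.000898). Both were low in young cells and several times higher in every aged library. F830016B08Rik had 59 to 96 counts in the aged and 3 to 11 counts in the young libraries, with a log2 fold change of 3.75 (SE 0.37, edgeR adjusted p = 0.000902). Of the 50-base stretches, 4.62% of Gm4951, 10.04% of Gm4841 and 1.76% of F830016B08Rik occur in another gene. The calls of all 4 held without any 1 library.

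In the chromosome 11 cluster of Irgm1, 1 of 8 genes rose, which was Irgm1 itself, and none fell. In the cluster of Igtp and Irgm2 these 2 rose and Gm12250 (also known as Irgb10), annotated in M21 as a pseudogene, did not pass the test (log2 fold change 0.54, SE 0.22, edgeR adjusted p = 0.125). Irgq, a distant IRG on chromosome 7, was lower in aged cells, at 17.31 to 20.53 CPM against 23.82 to 32.3 CPM (log2 fold change -0.61, SE 0.14, edgeR adjusted p = 0.0204), a call lost without aged replicate 2 or 3 or without young replicate 1, 3 or 4. Of the 10 other IRG genes, 3 rose (F830016B08Rik included) and 1 fell over all libraries, while 3 rose and 4 fell without aged replicate 1, and 4 rose and 3 fell with DESeq2 on all 7 libraries.

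Of the 5 genes in the chromosome 3 cluster, 3 rose, Gbp2, Gbp3 and Gbp2b, which lies between them. Gbp2b was at 87.54, 60.42 and 58.02 CPM in the aged and at 20.36, 19.34, 13.98 and 12.61 CPM in the young libraries. It had the largest change of the GBP genes, a log2 fold change of 2.05 (SE 0.21, edgeR adjusted p = 0.00114), which held without any 1 library. Gbp5, at the other end beyond Gbp7, did not pass the test (0.42, SE 0.17, edgeR adjusted p = 0.122), and was called without young replicate 2. Chromosome 5 holds a further 6 GBP genes, of which 3 rose and none fell. These were Gbp4 (log2 fold change 1.03, edgeR adjusted p = 0.00317), Gbp6 (1.04, adjusted p = 0.0117) and Gbp8 (1.09, adjusted p = 0.000757). Gbp9 did not pass the test (0.42, edgeR adjusted p = 0.233), and its log2 fold change ran from 0.07 without aged replicate 1 to 0.65 without aged replicate 2, where it was called. Gbp10 (0.88, edgeR adjusted p = 0.235) and Gbp11 (0.83, adjusted p = 0.159), which are outside the rule for named genes, did not pass the test either. Without aged replicate 1 the log2 fold change of Gbp10 was -0.14 and that of Gbp11 was 0.50. The counts of Gbp6 and Gbp10 are uncertain, since 70.7% and 84.1% of their 50-base stretches occur in another gene. Mx1, a large GTPase induced mainly by type I interferon, rose as well (2.05, edgeR adjusted p = 0.0289), a call lost without any 1 of the young libraries. It was at 86.76, 18.63 and 28.35 CPM in the aged libraries, and its log2 fold change was 1.12 without aged replicate 1. In all, 5 of 15 other GBP and large GTPase genes rose and none fell.

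**Figure D3:**
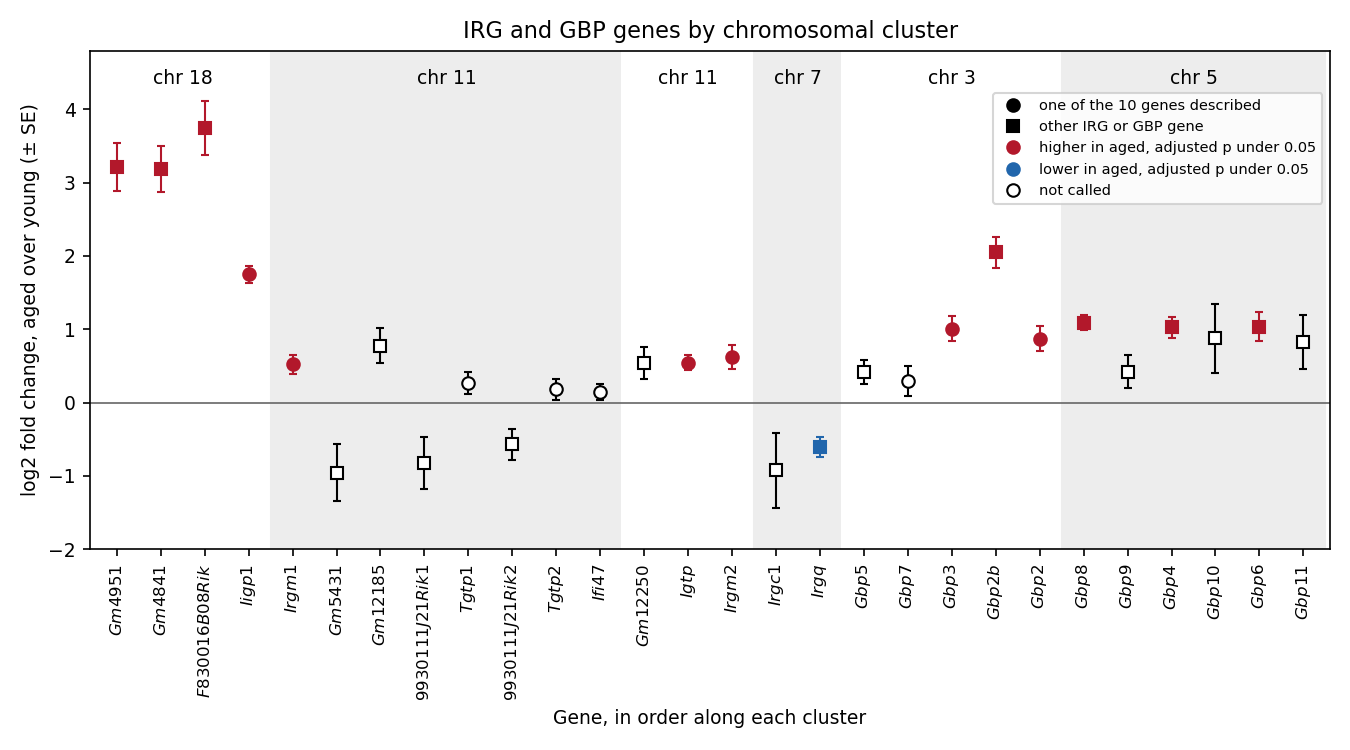
log2 fold change (aged over young) with its SE for each IRG and GBP gene, in order along 6 chromosomal clusters. Circles are the 10 genes described and squares their relatives, filled red where called higher, filled blue where called lower and open where not called. The 4 genes of the chromosome 18 cluster are all red, at 1.75 to 3.75, whereas in the longer chromosome 11 cluster only Irgm1 is.

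Of the 16 genes for the interferon-gamma ligand, receptor and signalling, 4 rose and 2 fell. Irf1, which binds ISRE elements, was at 251.3, 245.9 and 333.1 CPM in the aged and at 159.5, 167.9, 144.7 and 168.1 CPM in the young libraries, a log2 fold change of 0.79 (SE 0.13, edgeR adjusted p = 0.00624). For Irf1 the ages did not overlap and the call held without any 1 library. Stat3 and Socs3, an inhibitor of cytokine receptor signalling, also rose (log2 fold changes 0.49 and 1.203, edgeR adjusted p = 0.0169 and 0.00427), and the call of Stat3 was lost without aged replicate 3 or young replicate 3 or 4.

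Ifngr2, the signalling chain of the interferon-gamma receptor, fell, at 25.69, 27.59 and 27.79 CPM in the aged and 48.59, 45.97, 49.12 and 47.95 CPM in the young libraries (log2 fold change -0.83, SE 0.09, edgeR adjusted p = 0.00117). Aged levels were thus tightly grouped below the young ones, in the opposite direction to the 6 of the 10 IRG and GBP genes that rose. Ptpn6, a phosphatase that limits Jak signalling, also fell (-0.55, edgeR adjusted p = 0.0373), a call that, with 1 library left out, held only without aged replicate 2. The ligand-binding chain Ifngr1 did not pass the test (0.74, SE 0.27, edgeR adjusted p = 0.0991), and was called without young replicate 2, which at 407 CPM stood above the other young libraries. Ifng itself was low, at 4.89, 5.54 and 5.8 CPM in the aged and 2.36, 5.26, 3.63 and 2.08 CPM in the young libraries, and did not pass the test (0.69, SE 0.32, edgeR adjusted p = 0.179). Young replicate 2 lay at the aged level of Ifng, and without it the gene was called (adjusted p = 0.046, and 0.046 to 0.343 over the 7 fits that left out 1 library). Jak1 (-0.37, edgeR adjusted p = 0.0517, called lower in 6 of the 17 alternatives), Jak2 (-0.28, adjusted p = 0.18, and -0.14 without aged replicate 2) and Socs1 (0.25, adjusted p = 0.221) did not pass the test.

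Among 26 further targets of interferon-gamma that could be tested, 9 rose and none fell, with a median log2 fold change of 0.37. With GC content and length trends removed this median was 0.20. The 3 with the smallest p were Serpina3g, a serine protease inhibitor (1.55, edgeR adjusted p = 0.00162), Ly6a, the surface antigen Sca-1 (1.43, adjusted p = 0.00162), and Icam1, an adhesion molecule (0.67, adjusted p = 0.00339). Of 12 Th1-type genes 6 rose and none fell. They included Cxcr3, a chemokine receptor (1.64, edgeR adjusted p = 0.00125), and Tbx21, the transcription factor T-bet (1.04, adjusted p = 0.0105), with Ccl5, Il18rap, Il12rb1 and Il18r1, of which Il18r1 was not called without young replicate 3.

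Of 33 targets of type I interferon tested, 2 were called higher, Oas1a (1.88, edgeR adjusted p = 0.00241) and Ifi44 (4.00, adjusted p = 0.00435), none lower and 31 did not pass the test. Ifi44 had 61 to 353 counts in the aged and 7 to 17 in the young libraries. It passed the filter on low counts only through the aged libraries, where it is high. With at least 10 counts required in every library, 1 of 32 type I targets was called higher. Ifi44 was at 30.84, 6.14 and 8.14 CPM in the aged libraries, and its log2 fold change was 2.92 without aged replicate 1. The median log2 fold change of the list was 0.51 over all libraries and 0.07 without aged replicate 1, whereas that of the 10 IRG and GBP genes was 0.53 and 0.47. Without aged replicate 1, 2 of the type I targets were called higher and 2 lower, and without aged replicate 2, 7 were called higher and none lower. Within the aged libraries, replicate 1 was the highest for 28 of the 33 type I targets, as it was for 8 of the 10 IRG and GBP genes. Within the young libraries the lists differed, since young replicate 2 was the lowest for 23 of the 33 type I targets and the highest for 7 of the 10 IRG and GBP genes. These are descriptions of single libraries, and no test was made of the lists against each other.

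**Figure D4:**
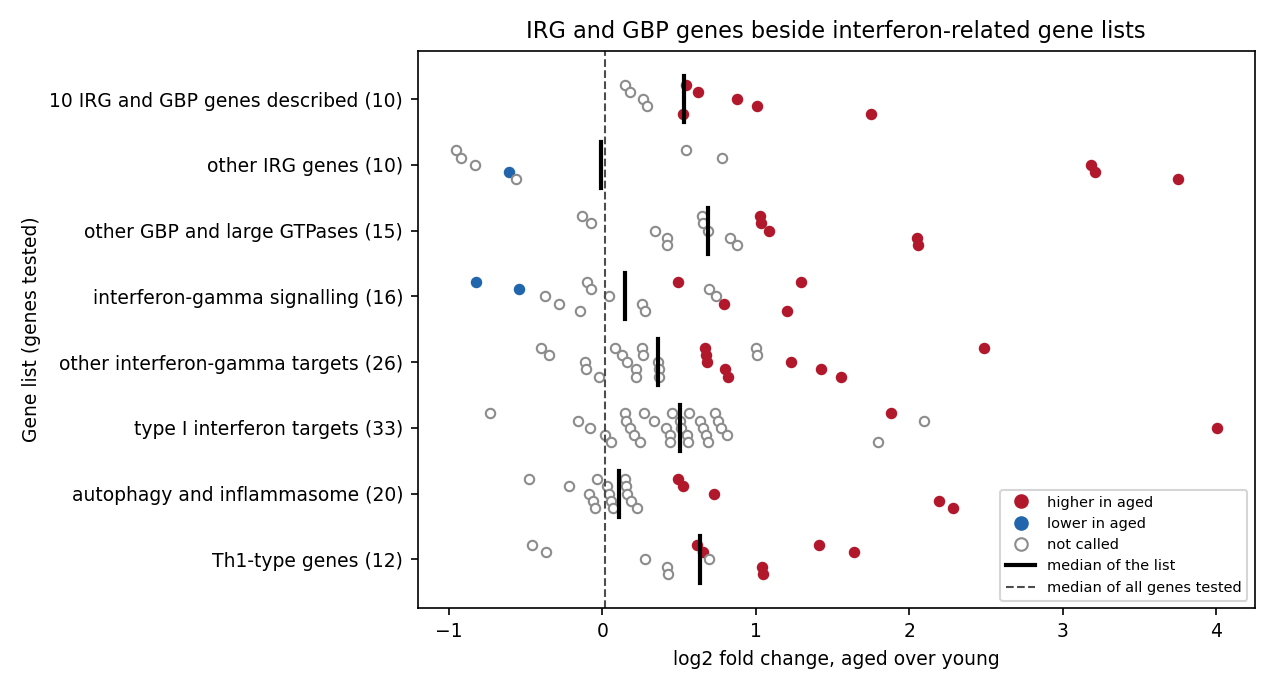
log2 fold change (aged over young) of each gene tested, by list, with the number of genes tested in brackets. Red points were called higher, blue points lower and open points not called, black bars are the medians of the lists and the dashed line is the median of all genes tested, 0.02. The 10 IRG and GBP genes all lie to the right of that line, with a median of 0.53.

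Of the 20 genes tested for proteins that load IRGs and GBPs onto vacuoles or act with GBPs in inflammasomes, 5 rose and none fell. Casp1 (2.20, edgeR adjusted p = 0.00033) and Casp4 (2.29, adjusted p = 0.000555), the inflammatory caspases, changed most, followed by Aim2 (0.73, adjusted p = 0.00179), a sensor of DNA, Gsdmd (0.52, adjusted p = 0.0104), the pore former that caspases cut, and Trim21 (0.49, adjusted p = 0.0227), whose call was lost without aged replicate 3 or young replicate 1, 3 or 4. None of the conjugation genes Atg3, Atg5, Atg7, Atg12 and Atg16l1 passed the test.

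The ISRE core and the GAS motif did not separate the genes that rose from those that did not. Of the 5 genes with a window that rose, all 5 held an ISRE core and 2 held a GAS. Of the 4 that were not called, 3 held both, and Ifi47 held neither. The ISRE core stood in 17 of 28 type I target genes with a window and in 3 of 18 other interferon-gamma targets. It stood in 3 of 6 other IRG genes, 2 of 5 other GBP and large GTPase genes and 2 of 14 interferon-gamma signalling genes. Among the partners in vacuole loading and inflammasomes it stood in 1 of 15, and among the Th1-type genes in 2 of 10.

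**Figure D5:**
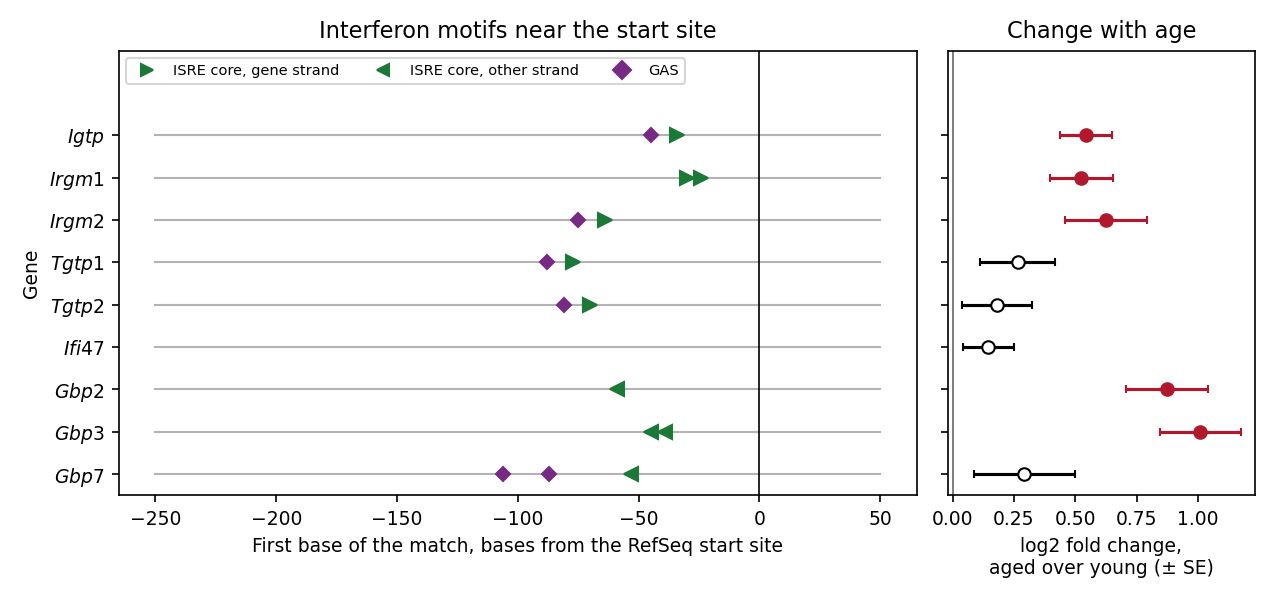
Left, position of the first base of each ISRE core (green triangles, pointing right on the strand of the gene and left on the other) and GAS match (purple diamonds) in bases from the RefSeq start site, over windows of 250 bases before to 50 after it. Right, log2 fold change (aged over young, with SE) of the same gene, filled red where called higher. Tgtp1, Tgtp2 and Gbp7 hold both motifs and were not called.

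The profile over the 7 libraries of the mean of the 10 genes was compared with those of 9242 other genes outside all lists. The nearest, by root mean square distance of centred log2 CPM, were Mks1 (0.0771), Mlxip (0.079), Gm21092 (0.0801), H2-T22 (0.0807) and Slco3a1 (0.0847). Their log2 fold changes were 0.55 to 0.59, as the choice by likeness requires.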

How the data were processed

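The authors deposited raw read counts per Ensembl gene for each library of SMART-Seq cDNA (3 aged, 4 young). The authors also deposited 1 table of signal values, which equal each count divided by a constant of its library, beside columns named as DESeq2 names them (their log2 fold change with its standard error, a p-value and its adjusted form), none of which was used. The genome build was mm10 per the submitters' processing notes, and the aligner is not given in the sources used here. Reads that the tables list as lying on no single gene (13.1% to 20.9% of a library) were excluded. The cDNA carries no molecular identifiers, and the limit of detection, set at 3 counts, was 0.22 to 0.279 CPM. The ages were compared by the quasi-likelihood test of edgeR 4.0.16 (R 4.3.3) after TMM normalization and filterByExpr by group, without covariates and with Benjamini-Hochberg adjustment over 13904 genes. SE was obtained by dividing the log2 fold change by the square root of F. CPM are on the TMM scale. Alternatives were RLE normalization, library size only, DESeq2 1.42.0, limma 3.58.1 (voom), other filters on low counts, removal of dominant genes or of GC content and length trends, Tgtp1 and Tgtp2 summed, the replicate number as a block and each library left out in turn. Coordinates and shared sequence are from GENCODE M21 (GRCm38, matched to 47310 of the 47729 identifiers), and promoter windows from RefSeq. The tests were checked on simulated counts. The 10 genes, the lists and the rules were chosen with earlier results of these data known. Named were all 10 genes, from each list the genes that passed where 6 or fewer and otherwise those with the smallest p (3 in each direction), the main genes of the interferon-gamma pathway, 6 further GBP genes, Gm12250 and the 5 genes with the nearest profile among those whose log2 CPM averaged at least 3. The result for 1 gene of the interferon-gamma signalling list is not reported here.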

Additional observations from a re-analysis of the deposited data

Results flagged for a closer look

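Among the 4 young libraries, Gbp2 in young replicate 2 stood far from the other young libraries, at 118.3 CPM against 85.61 to 90.02 CPM. It was the only 1 of the 10 genes whose highest or lowest young library had so large a gap. The 3 aged libraries are too few for this comparison. Chance gives such a gap in about 1 of 20 groups. Without young replicate 2, Gbp2 was still called higher in aged cells.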

How the results depend on the processing

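Iigp1 was called higher under each of the 17 alternatives, and Igtp, Gbp2 and Gbp3 under all but the replicate block (adjusted p 0.0977, 0.0908 and 0.0726, their highest). Irgm1 was called in 10 of them (library size only 0.101, replicate block 0.111) and Irgm2 in 9 (library size only 0.054, GC content and length trends removed 0.066, replicate block 0.0858), counting the fits without 1 library. With the replicate block, 292 genes were called in place of 2327, and 1 of the 10 genes in place of 6, and 0 of the 26 other interferon-gamma targets in place of 9. Libraries with the same number did not deviate together (r -0.09, -0.29 and -0.14). So few values cannot show whether the numbers pair the samples, and the labels do not say. Leaving out 1 library gave 1237 (without young replicate 4) to 3058 (without aged replicate 1) called genes, with 1262 without aged replicate 3, 1315 without young replicate 1 and 1270 without young replicate 3, and 4 to 5 of the 10 genes. None of the 10 genes was called lower under any alternative. Fold changes near 0 turned sign in Ifi47 with GC content and length trends removed (-0.00599), in Tgtp2 (-0.0079 to 0.30 without 1 library) and in Gbp7 (-0.00819 to 0.45), both without aged replicate 1, where Tgtp1 was also lowest (0.08 to 0.39 without 1 library). Of all called genes, 58.5% were higher, and 44.6% with GC content and length trends removed (1193 higher, 1482 lower). The cause was not tested in any of these cases. At this depth the 10 genes had counts far above the limit of detection.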

Other observations

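In the chromosome 11 cluster, the large tandem IRG genes 9930111J21Rik1, 9930111J21Rik2 and Gm5431, which lie beside or between Irgm1, Tgtp1 and Tgtp2, had lower means in aged than in young cells. 9930111J21Rik1 was at 33.99, 13.09 and 10.95 CPM in the aged and at 38.02, 34.9, 34.43 and 30.46 CPM in the young libraries (log2 fold change -0.83, edgeR adjusted p = 0.146). 9930111J21Rik2 was at 72.17, 41.59 and 38.55 CPM in the aged and at 80.58, 66.15, 81.19 and 73.04 CPM in the young libraries (-0.57, edgeR adjusted p = 0.104). In both genes aged replicate 1 was at the young level, and the other aged libraries were lower. Gm5431 had only 7 to 20 counts in the aged and 17 to 38 in the young libraries (-0.95, edgeR adjusted p = 0.13). None of the 3 was called with edgeR over all libraries, 9930111J21Rik1 and 9930111J21Rik2 were called lower with DESeq2 over all libraries, and all 3 were called lower without aged replicate 1 with edgeR (adjusted p = 0.00174, 0.00344 and 0.0285). Their log2 fold changes without aged replicate 1 were -1.52, -0.91 and -1.52. Over the 7 fits that left out 1 library, the adjusted p reached 0.356, 0.29 and 0.33. This setting was singled out because it changed the calls. The genes share sequence, with 83.2%, 59.8% and 37.3% of their 50-base stretches found in another gene, so that their separate counts are uncertain. Gm12185, a further IRG gene of this cluster, went the other way. It was at 20.97, 12.19 and 11.88 CPM in the aged and 6.63 to 9.96 CPM in the young libraries. It was not called (log2 fold change 0.78, SE 0.24, edgeR adjusted p = 0.0586), but was called in 1 of the 17 alternatives. Without aged replicate 1 its log2 fold change was 0.45. Of its 50-base stretches, 19.5% occur in another gene.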
